A study of Homo sapiens with 6 samples.

Results

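The comparison described here is that of OCI-AML2 cells carrying TAZ shRNA2 with cells carrying the control hairpin. It uses 4 of the 6 libraries of the series, libraries A and B of each group. Of the 13002 genes in the deposited table, the 10659 that averaged 1 RPKM or more in these 4 libraries were tested. RPKM are reads scaled by gene length and library depth. OCI-AML2 is an established human acute myeloid leukaemia line, which the labels describe as an engineered leukaemic stem cell line. Both groups received a short hairpin RNA by lentivirus and then 3 days of selection with 2.0 µg/mL puromycin, so infection and selection are common to them. The control hairpin is a scramble sequence by its label, but the columns that hold it are named GFP. A second hairpin against the same gene, TAZ shRNA1, made up the other 2 libraries. Whether A and B were grown as separate cultures is not in the labels; the p-values rest on the spread between them, and that spread may be technical. The labels also do not say whether a group was 1 infected pool.

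TAZ encodes tafazzin, a transacylase of mitochondria that exchanges the acyl chains of cardiolipin, the phospholipid of the inner membrane. Cardiolipin holds respiratory complexes and the folds of the inner membrane together, and loss of tafazzin causes Barth syndrome, a disease of heart, muscle and neutrophils. The series title ties tafazzin to cell state and to the phospholipids phosphatidylethanolamine and phosphatidylserine. Another gene, WWTR1, is also often called TAZ and is the partner of YAP1 in the Hippo pathway. It was not the target here.

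The 4 libraries held 18820682 to 20027655 reads in listed genes, and the 10 most abundant genes took 8.01% to 9.14% of them. The level of TAZ (gene ID 6901) was 11.3 RPKM in control A, 11.9 RPKM in control B, 1.47 RPKM in shRNA2 A and 2.13 RPKM in shRNA2 B. Pairs of values below follow this order, A before B. The groups did not overlap, and the log2 fold change was -2.41 (SE 0.18, limma adjusted p = 0.00245). This fold lay between -2.20 and -2.61 when 1 library at a time was left out.

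Of 17 myelomonocytic marker genes, 15 were in the table, all but CD34 and ANPEP, and 13 averaged 1 RPKM or more. LYZ, SPI1 and CEBPA were the most abundant of them. Others were low or nearly absent in the control, with ITGAM at 0.577 and 0.291 RPKM and KIT at 0.0216 and 0.00953 RPKM. CSF1R was at 4.02 and 2.16 RPKM there. Markers of other lineages were sparse. The table held 2 of 17 erythroid markers, with no globin among them, 4 of 12 megakaryocyte markers with a summed level of 3.88 to 6.23 RPKM per library, and 4 of 12 B and plasma cell markers with 1.31 to 3.46 RPKM. It held 5 of 18 T and NK cell markers (44.2 to 63.7 RPKM), 6 of 12 mast cell, basophil and eosinophil markers (61.4 to 142 RPKM) and 6 of 13 dendritic cell markers (54.0 to 75.0 RPKM). In each of these lists the summed levels of the groups overlapped, except for megakaryocyte, B cell and dendritic cell markers, where both control libraries were higher. Defining genes such as CD3E, CD8A and MS4A1 were not in the table. BATF3 and GATA2 were called lower and CD4 and NCAM1 higher; what part other cell types have in the results was not tested. In bulk RNA, fewer cells of a type and less RNA per cell cannot be told apart.

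With shRNA2, 865 genes were higher than in the control (8.12% of those tested) and 811 were lower (7.61%). A gene is called at an adjusted p under 0.05 in a limma fit over all genes on log2(RPKM + 0.5). Together the 1676 called genes are 15.7% of those tested, and 253 of the higher and 241 of the lower ones changed at least 2-fold. For comparison, the groups did not overlap in 62.1% of all genes tested, so separation of the groups by itself sets few genes apart. The groups were separate in all 1676 called genes, so separation adds nothing to a call. The median log2 fold change over all genes was -0.005. The count of called genes fell when either shRNA2 library was left out, and further without shRNA2 B than without shRNA2 A. Called higher genes were longer than called lower genes, with a median of 3461 bases against 2265 bases, beside 2926 bases for all genes tested. Removing the trend over gene length left no called gene with the other sign.

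**Figure D1:**
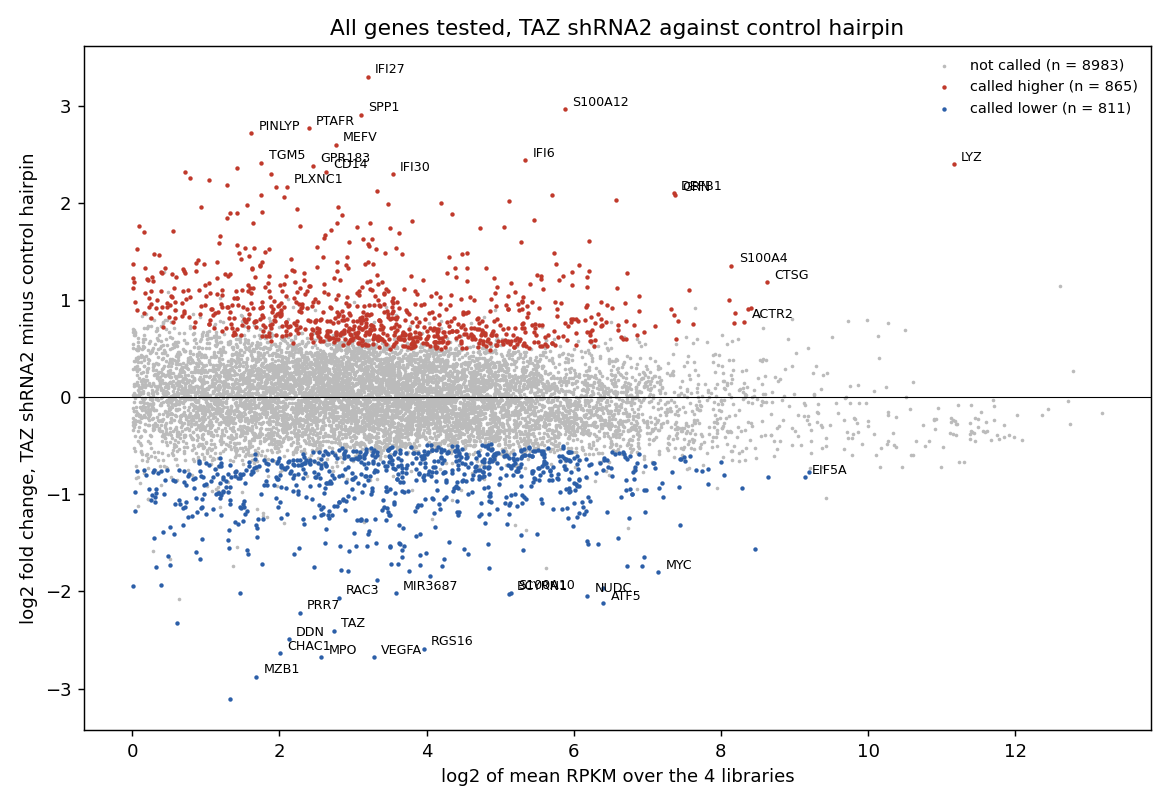
Each point is 1 of the 10659 genes tested; the horizontal axis is the log2 of its mean RPKM over the 4 libraries and the vertical axis its log2 fold change, TAZ shRNA2 minus control hairpin. Red points are the 865 genes called higher, blue points the 811 called lower and grey points the rest; TAZ lies at -2.41 and LYZ, the most abundant labelled gene, at 2.40.

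Among the 15 largest rises were LYZ, IFI6, MEFV and CD14, genes known from monocytes, granulocytes or the interferon response. LYZ, lysozyme, stood at 786 and 676 RPKM in the control and at 4220 and 3490 RPKM with shRNA2, and its log2 fold change was 2.40 (SE 0.27, limma adjusted p = 0.0033). It also had the largest gain in mean RPKM of any called gene. IFI6, an interferon-induced protein of mitochondria, went from 15.5 and 9.64 RPKM to 68.8 and 68.2 RPKM (log2 fold change 2.44, SE 0.22, limma adjusted p = 0.00245). MEFV, which encodes the inflammasome protein pyrin, went from 2.01 and 1.2 RPKM to 10.6 and 13.5 RPKM (log2 fold change 2.60). CD14, the monocyte co-receptor for bacterial lipopolysaccharide, stood at 2.34 and 1.17 RPKM against 13.4 and 7.97 RPKM. In these 4 genes the lowest shRNA2 library was more than 3 times the highest control library.

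Further genes among the 15 largest rises were the lipid-mediator receptor PTAFR (log2 fold change 2.77), the oxysterol-sensing receptor GPR183 (2.38), the scavenger receptor CD36 (2.30), the lysosomal thiol reductase IFI30 (2.29) and the plexin PLXNC1 (2.16). TGM5 (2.41), a transglutaminase, GLIPR1 (2.17) and PINLYP (2.72) were also among them, as were the interferon-stimulated IFI27 (3.29) and the granulocyte calcium-binding protein S100A12 (2.96). SPP1, osteopontin, was at 2.96 and 0.68 RPKM in the control and at 20.1 and 10.6 RPKM with shRNA2. Its log2 fold change of 2.91 was 3.68 without control A and 2.13 without control B. All 15 kept their call with any 1 library left out, which is no added support, since the p-values of those fits are on another scale. SPP1 lost its call under robust empirical Bayes variances (limma adjusted p = 0.0599). In 3 of the 15, PINLYP and CD36 among them, the control mean was under 1 RPKM, so they were tested because of their level with shRNA2.

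Measured in RPKM rather than in fold, the gains were led by LYZ and by CTSG, cathepsin G, a protease of neutrophil granules. CTSG was at 255 and 229 RPKM in the control and at 611 and 491 RPKM with shRNA2 (log2 fold change 1.2, SE 0.20, limma adjusted p = 0.0113). GRN, the precursor of granulins that is processed in lysosomes, went from 75.1 and 52.1 RPKM to 296 and 239 RPKM (log2 fold change 2.08). DEFB1, an epithelial defensin, went from 77.5 and 46.6 RPKM to 325 and 206 RPKM (log2 fold change 2.1). These genes were picked from called genes whose groups did not overlap. Other large gains lost their call when a library was left out: S100A4, ARPC5, CA2 and MS4A3 without control B or shRNA2 A, CLEC11A without control B, and ACTR2 whichever of the 4 libraries was left out.

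Among the 15 largest falls, ranked with the same limit of 5 RPKM, were NUDC, MPO and VEGFA. IL32, under that limit, fell further and is given with the NF-kappaB genes. NUDC, a co-chaperone of dynein needed for nuclear migration and cell division, was at 123 and 111 RPKM in the control and at 30.5 and 25.7 RPKM with shRNA2 (log2 fold change -2.04, SE 0.16, limma adjusted p = 0.00245). MPO, the myeloperoxidase of primary granules, went from 11.2 and 10.1 RPKM to 1.02 and 1.49 RPKM (log2 fold change -2.68). VEGFA, the vascular growth factor, went from 12.4 and 22.1 RPKM to 2.16 and 2.18 RPKM (log2 fold change -2.68). The rule that picked these genes asked for groups without overlap.

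Log2 fold changes were -2.59 for RGS16, an inhibitor of G-protein signalling, -2.88 for MZB1 of the endoplasmic reticulum, -2.49 for DDN, -2.22 for PRR7 and -2.07 for RAC3, a small GTPase. They were -2.01 for S100A10, the annexin A2 partner, and -1.96 for ATP6V1F, a subunit of the proton pump. The noncoding RNA BCYRN1 and the microRNA gene MIR3687 were each at -2.02. Both are repeated or short sequences whose reads could belong to other copies, so their values are uncertain. ATF5, a stress-induced transcription factor, was at 97.3 and 181 RPKM in the control and at 28.5 and 31.8 RPKM with shRNA2. CHAC1, an enzyme that degrades glutathione, had 2.15 RPKM in control A but 13 RPKM in control B, against 0.627 and 0.319 RPKM with shRNA2. Its log2 fold change of -2.64 was -3.81 without control A and -1.46 without control B, and its call was lost under robust empirical Bayes variances (limma adjusted p = 0.14).

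**Figure D2:**
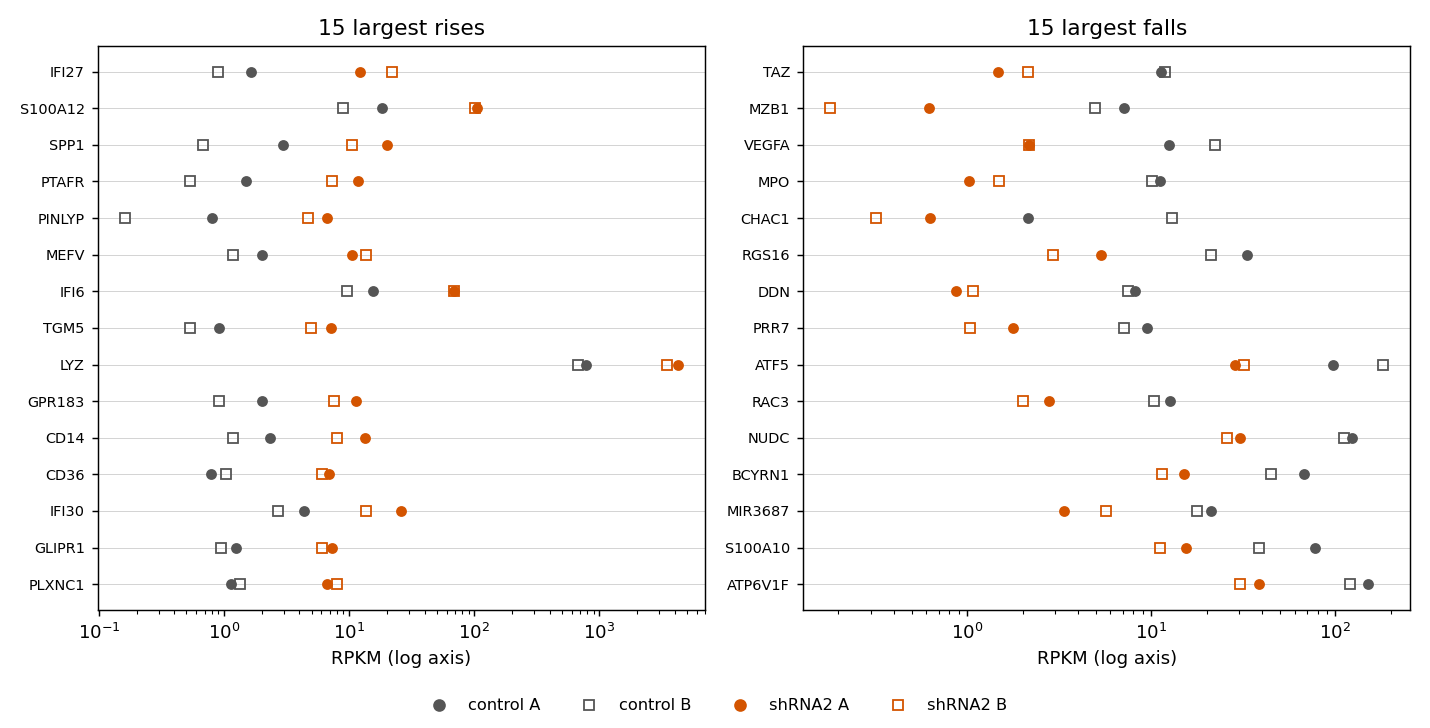
RPKM of the 15 genes with the largest rises (left) and the 15 with the largest falls (right) in each of the 4 libraries, on log axes; grey marks are control libraries, orange marks shRNA2 libraries, filled circles library A and open squares library B. The 30 genes were picked from called genes whose groups do not overlap, with at least 5 RPKM in the higher group. Control A and B lie widest apart for CHAC1 on the right and for PINLYP and SPP1 on the left.

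In RPKM, the 10 largest losses included MYC, ATF4 and EIF4EBP1. MYC, the transcription factor of cell growth, was at 203 and 240 RPKM in the control and at 57.4 and 68.7 RPKM with shRNA2 (log2 fold change -1.80, SE 0.17, limma adjusted p = 0.00245). ATF4, the transcription factor of the amino acid response, went from 451 and 602 RPKM to 186 and 166 RPKM (log2 fold change -1.56). EIF4EBP1, the repressor of cap-dependent translation, went from 194 and 305 RPKM to 109 and 86.7 RPKM (log2 fold change -1.32). Each of these kept its call with any 1 library left out. FBL (fibrillarin), SOD1 and RANBP1 lost theirs without control A or shRNA2 B, FABP5 without control A, control B or shRNA2 B, and EIF5A and HSPD1 whichever of the 4 libraries was left out.

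Gene groups were read from 41 lists, each by the number of members called and by its median log2 fold change, beside the shares of 8.12% and 7.61% called higher and lower among all genes. No test of a list was made. The lists with the largest shares of higher members were leukaemic stem cell genes, lysosomal genes, chemoattractant receptors and ligands, and paired, lectin, Fc and complement receptors of myeloid cells. Those with the largest shares of lower members were serine synthesis, amino acid transport, ERK feedback and NF-kappaB.

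**Figure D3:**
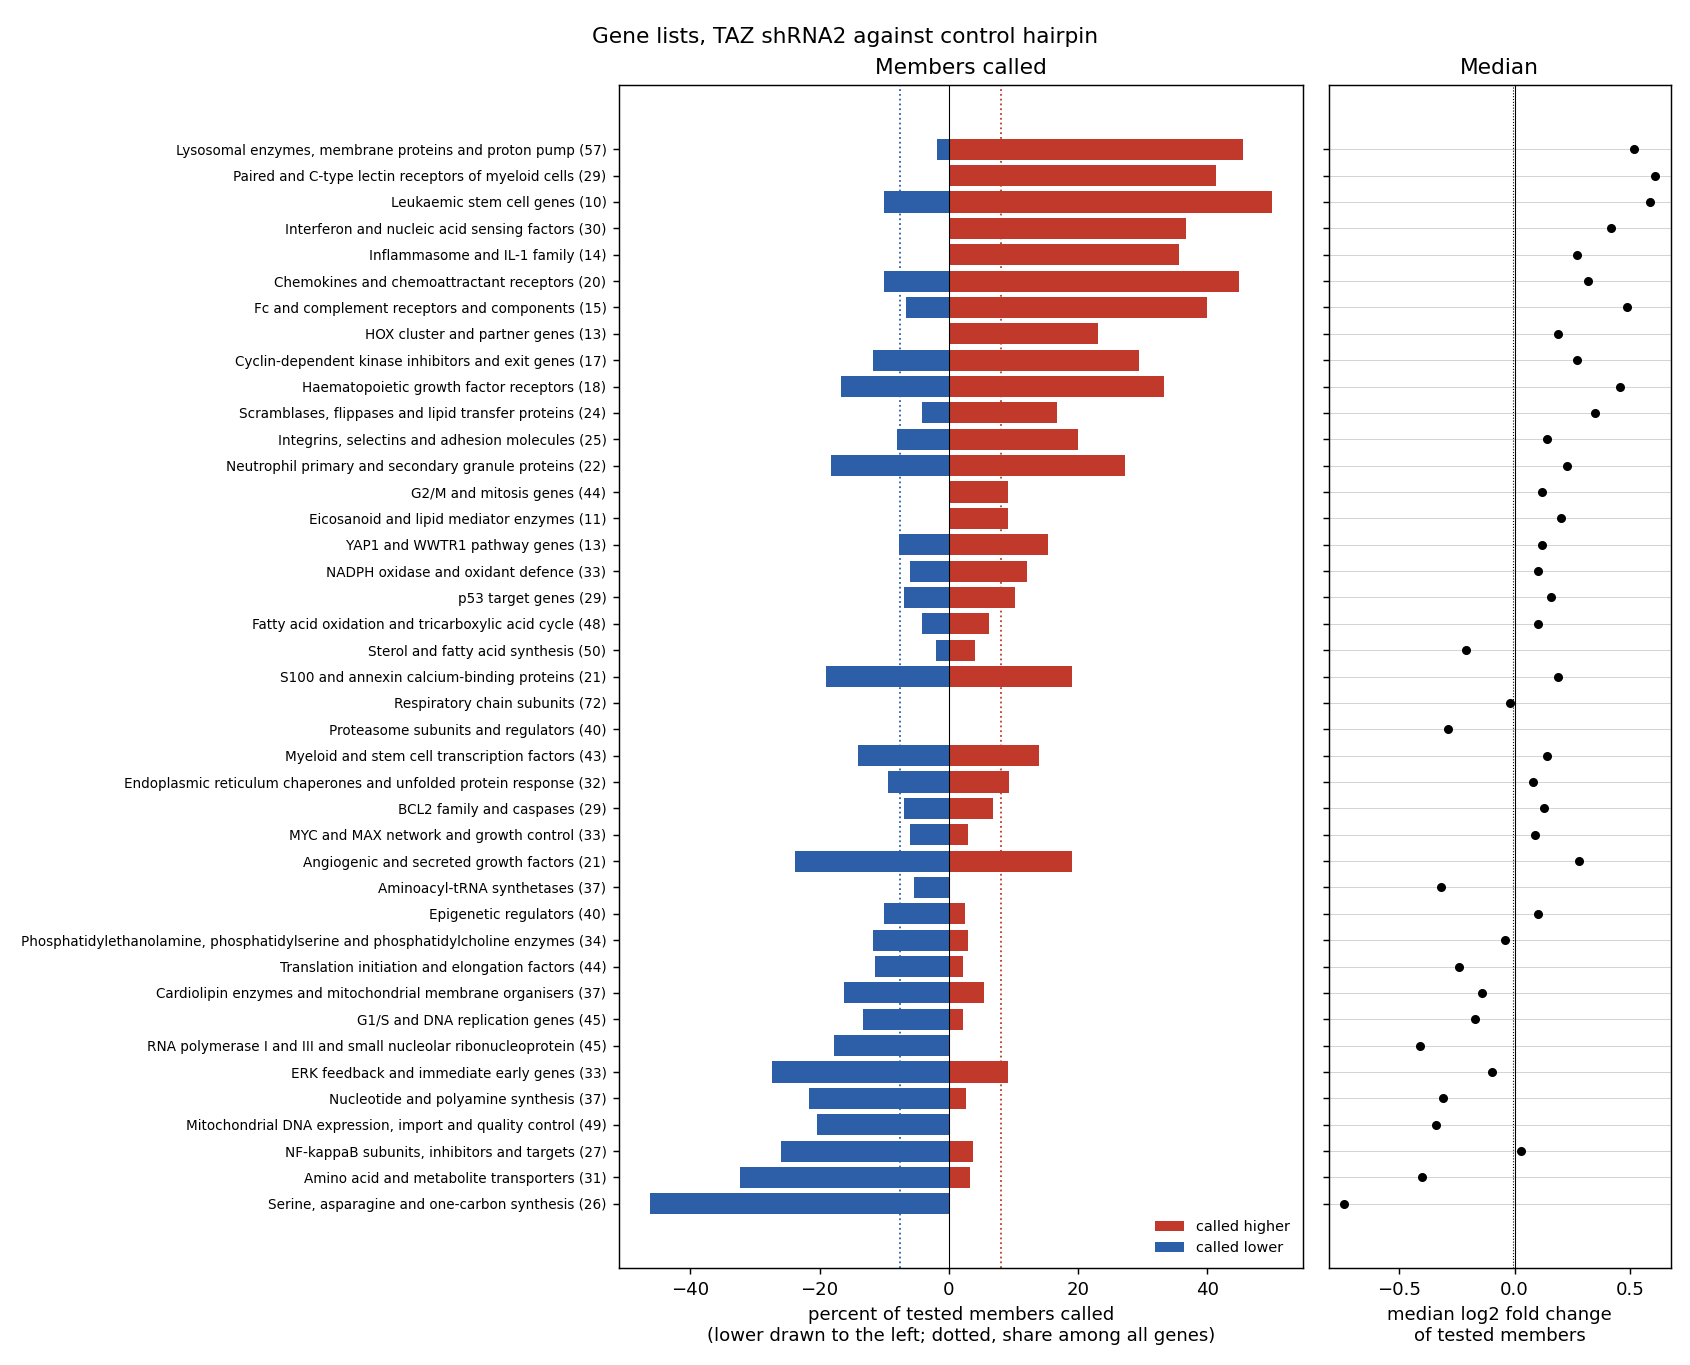
Left, percent of tested members of each of 41 gene lists called higher (red, to the right) or lower (blue, to the left), with the number tested in brackets; dotted lines mark 8.12% and 7.61%, the shares among all genes. Right, the median log2 fold change of the tested members; it runs from 0.61 for paired and lectin receptors to -0.74 for serine, asparagine and one-carbon synthesis.

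Lysosomes break down proteins, lipids and glycans in an acid lumen made by a proton pump, and they are abundant in monocytes and macrophages. Of 57 lysosomal genes tested, 26 were higher (45.6%), 1 was lower and 30 did not pass, and the median log2 fold change was 0.52. The 42 enzymes and membrane proteins held 22 of the rises and no fall, with a median of 0.63. CTSB, a cysteine protease, was at 11.7 RPKM in both control libraries and at 31.6 and 28.7 RPKM with shRNA2 (log2 fold change 1.33, SE 0.14, limma adjusted p = 0.00268). TPP1, a lysosomal peptidase, went from 42.9 and 42.7 RPKM to 90.9 and 112 RPKM (log2 fold change 1.23). CD68, a membrane glycoprotein of macrophage lysosomes, went from 47.8 and 28.2 RPKM to 168 and 137 RPKM (log2 fold change 2.03). The cholesterol carrier NPC2 rose by 1.26. In each of these, as in every called gene, the groups stood clear of each other.

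Among the 15 proton pump genes, 4 were higher and 1 was lower, with a median of 0.27. ATP6V1F was the lower one, at 151 and 120 RPKM in the control and at 38.3 and 30.2 RPKM with shRNA2, while 12 of the 15 had values above the control. Of the 26 rises in the whole list, 14 kept their call whichever library was left out, and 15 remained called higher without shRNA2 A. The list's median lay between 0.39 and 0.64 over these fits.

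Promoters of lysosomal genes are known for an extended E-box, the site of the transcription factor TFEB. The letters TCACGTGA were searched on both strands in RefSeq promoters (GRCh38.p14), 250 bases before to 50 after the first listed start, which were at hand for 8617 of the genes tested (80.8%). They occurred in 2.18% of these promoters and in 7 of the 40 lysosomal promoters at hand. Of the 15 promoters of called higher lysosomal genes, 2 held them, those of CTSA and ATP6V0D1. CTSA, protective protein cathepsin A, was at 47.5 and 42.9 RPKM in the control and at 103 and 95.8 RPKM with shRNA2, and ATP6V0D1, a proton pump subunit, at 36.8 and 35 against 76.6 and 66.1 RPKM. Both genes were singled out for this match after their values were seen. Their promoters are shown with the match in capitals, CTSA on the plus strand of chr20:45891085-45891384 and ATP6V0D1 on the minus strand of chr16:67481108-67481407.
CTSA: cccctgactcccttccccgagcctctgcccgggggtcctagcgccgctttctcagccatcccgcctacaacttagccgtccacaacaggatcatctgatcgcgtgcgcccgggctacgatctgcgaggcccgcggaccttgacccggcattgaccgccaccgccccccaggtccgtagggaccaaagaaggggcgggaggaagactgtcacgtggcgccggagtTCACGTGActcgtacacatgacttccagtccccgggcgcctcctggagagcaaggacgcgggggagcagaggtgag
ATP6V0D1: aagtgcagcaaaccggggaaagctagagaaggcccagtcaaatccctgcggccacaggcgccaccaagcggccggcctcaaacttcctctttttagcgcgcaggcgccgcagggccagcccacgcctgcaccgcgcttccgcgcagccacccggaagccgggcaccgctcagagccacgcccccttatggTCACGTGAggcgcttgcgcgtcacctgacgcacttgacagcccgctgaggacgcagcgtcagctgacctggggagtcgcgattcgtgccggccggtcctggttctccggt
A match is a description of the letters and not a measured site. TFEB itself was at 4.99 and 5.07 RPKM in the control and at 6.93 and 5.92 RPKM with shRNA2, and did not pass (log2 fold change 0.32, limma adjusted p = 0.195).

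Myeloid cells carry paired receptors, which set activating against inhibitory signals, and lectin receptors that bind glycans. Of 29 such genes tested, 12 were higher (41.4%) and none was lower, with a median log2 fold change of 0.61. Neither limma-voom on recovered reads nor an unadjusted p under 0.05 gave a lower member, and the authors' deposited table gives 1 lower. TREM2, a lipid-sensing receptor of macrophages, was at 4.40 and 3.83 RPKM in the control and at 22.2 and 14.2 RPKM with shRNA2 (log2 fold change 1.99, SE 0.22, limma adjusted p = 0.00317). LILRB4, an inhibitory receptor, went from 3.81 and 3.34 RPKM to 9.69 and 10.7 RPKM (1.39). CLEC5A, an activating lectin receptor, went from 18.9 and 19.9 RPKM to 41.8 and 40.7 RPKM (1.07), and CD200R1, an inhibitory receptor, from 0.935 and 0.651 RPKM to 2.99 and 2.85 RPKM (1.41). Of the 12 rises, 9 kept their call in every fit with a library left out and 1 was not tested without shRNA2 A; without control B 2 members were called lower. In 3 of the 29 the control mean was under 1 RPKM, so they were tested because of their level with shRNA2, and 2 of these are among the 12 rises.

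Fc and complement receptors bind antibody and complement on targets to be engulfed. Of 15 tested, 6 were higher and 1 lower, with a median of 0.49, and all 7 calls held with any library left out; without control B 3 were called lower. ITGB2, the shared beta chain of the leukocyte integrins, was at 48.9 and 36.8 RPKM in the control and at 111 and 100 RPKM with shRNA2 (log2 fold change 1.30). FCGRT, the neonatal Fc receptor, rose by 1.62 and CD93 by 1.16 on the log2 scale. CD55, which shields cells from complement, was the lower one, at 51.6 and 56.3 against 28.7 and 23.7 RPKM (log2 fold change -1.03, limma adjusted p = 0.00781).

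Chemokine receptors guide leukocytes along gradients of their ligands. Of 13 chemoattractant receptor genes tested, 7 were higher and 1 was lower (CXCR4, the marrow-homing receptor, a call lost without control A or shRNA2 B), with a median of 0.66. The control mean of 1 of the 7 was under 1 RPKM, so it was tested because of its level with shRNA2. CCR2, which draws monocytes out of the marrow, was at 22.7 and 15.8 RPKM in the control and at 75.9 and 61.5 RPKM with shRNA2 (log2 fold change 1.82, SE 0.20, limma adjusted p = 0.00326). CXCR2, a neutrophil receptor, went from 5.92 and 5.07 RPKM to 16.1 and 16.2 RPKM (1.48). Of the 7 ligands, 2 were higher and 1 was lower, with a median of -0.93. CCL2, the ligand of CCR2, was at 9.95 and 6.67 RPKM against 39.9 and 24.8 RPKM (1.88), and CCL5 at 207 and 142 RPKM against 91.1 and 61.6 RPKM (-1.19). Over receptors and ligands together, 2 were lower, against 5 without control B.

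Interferons signal through receptor-bound kinases, among them JAK2, to transcription factors that enter the nucleus. Of 30 genes for this pathway and for nucleic acid sensing, 11 were higher and none was lower, with a median of 0.42; an unadjusted p under 0.05, limma-voom and the authors' deposited table give no lower member either. IRF7, a transcription factor that amplifies interferon production, was at 2.29 and 2.09 RPKM in the control and at 5.69 and 7.84 RPKM with shRNA2 (log2 fold change 1.42). JAK2 rose by 1.08 and STAT2, one of those factors, by 0.94. Without shRNA2 B, 6 of the list remained called higher. The core letters of the interferon-stimulated response element, GAAANNGAA, stood in 6.72% of all promoters at hand in 3 of the 20 at hand for this list and in none of the 7 at hand for its called higher members.

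In the inflammasome and IL-1 family, 5 of 14 genes were higher and none was lower, with a median of 0.27; no lower member appears at an unadjusted p under 0.05, by limma-voom or in the authors' deposited table. After MEFV, the largest rises were in NAIP, a sensor of bacterial flagellin (1.61 and 1.69 against 5.01 and 5.04 RPKM, log2 fold change 1.36), and in IL18BP, a decoy that binds IL-18 (1.66 and 1.68 against 5.26 and 4.79 RPKM, 1.35). NLRP3, a sensor, was at 20.8 and 18.8 RPKM in the control and at 32.7 and 35.9 RPKM with shRNA2 (0.78). IL1RAP, the shared co-receptor of the IL-1 family, rose by 0.78, a call lost without shRNA2 B. NAIP has near-identical copies in the genome, which makes its reads uncertain.

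Granule proteins of neutrophils did not move together. Of 22 tested, 6 were higher and 4 lower. Besides LYZ and CTSG, MMP8, the neutrophil collagenase, was higher at 0.549 and 0.42 against 2.88 and 3.78 RPKM (log2 fold change 1.95); with a control mean under 1 RPKM, it was tested because of its level with shRNA2. Besides MPO, CST7, an inhibitor of granule proteases, was lower, at 12.3 and 11.3 RPKM against 3.82 and 3.37 RPKM (log2 fold change -1.59, limma adjusted p = 0.00245). The median was 0.23, and it ran from 0.06 without control B, where 7 members were called lower, to 0.64 without shRNA2 B.

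Transcription factors of blood cells went both ways as well, with 6 of 43 higher and 6 lower and a median of 0.14. TFEC, a macrophage relative of TFEB, was at 1.48 and 1.27 RPKM in the control and at 4.90 and 4.35 RPKM with shRNA2 (log2 fold change 1.45), and ID1, an inhibitor of differentiation factors, rose by 1.24. KLF6 (-1.04) and HHEX (-0.80) were lower, the latter lost without shRNA2 B, where 3 members were called higher and 2 lower. Of 6 HOXA genes, stem and progenitor regulators often high in acute myeloid leukaemia, 3 were higher, with values above the control in all 6 and a median of 0.70. HOXA7 was at 5.08 and 5.14 RPKM against 9.55 and 11.1 RPKM (0.94), and HOXA5 at 7.22 and 7.44 against 13.4 and 12.8 RPKM (0.79). HOXA9 rose by 0.78, and its call was lost without control A, shRNA2 A or shRNA2 B.

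Of 10 genes tied to leukaemic stem cells, 5 were higher and 1 was lower, with a median of 0.59. MMRN1, multimerin, was at 12 and 12.1 RPKM in the control and at 34.4 and 34.8 RPKM with shRNA2 (log2 fold change 1.48, SE 0.13, limma adjusted p = 0.00245). It was the one member called in all 4 fits with a library left out. EMP1 (1.71), at 0.678 and 0.176 RPKM in the control, was tested because of its level with shRNA2, was called in 3 of these fits and was not tested without shRNA2 A. The call was lost for CDK6 (0.81) without control A or shRNA2 B, SOCS2 (0.54) without control A, shRNA2 A or shRNA2 B, and the DNA methyltransferase DNMT3B (-0.73) without control B, shRNA2 A or shRNA2 B. Without either shRNA2 library 3 members were called higher.

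Serine synthesis starts from a glycolytic intermediate through PHGDH, PSAT1 and PSPH, and mitochondrial SHMT2 and MTHFD2 pass its carbon into the folate pool. These enzymes are targets of ATF4. Of 26 genes of serine, asparagine and one-carbon synthesis, 12 were lower (46.2%) and none was higher, with a median log2 fold change of -0.74. No member was higher at an unadjusted p under 0.05, by limma-voom or in the authors' deposited table. MTHFD2 was at 127 and 254 RPKM in the control and at 60.1 and 47.4 RPKM with shRNA2 (log2 fold change -1.74, SE 0.31, limma adjusted p = 0.0129). PHGDH went from 106 and 183 RPKM to 49.4 and 51.7 RPKM (-1.45), and GPT2, mitochondrial alanine aminotransferase, from 11.6 and 27.8 RPKM to 6.06 and 5.36 RPKM. In these 3 genes control B was above control A, and both were above the shRNA2 libraries. The fold change of GPT2, -1.58, was -2.19 without control A and -0.96 without control B, and its call was lost under robust empirical Bayes variances (limma adjusted p = 0.0768). GOT2, the mitochondrial aspartate aminotransferase, fell by 0.77, a call lost without shRNA2 B. Over the list, 6 of the 12 calls held with any library left out, which is also the count without shRNA2 B, and the median lay between -0.79 and -0.51. ATF4 moved with this list, as given above; its part in the result was not tested. The letters TGATGNAA of the amino acid response element stood in 1.62% of all promoters at hand in 3 of the 17 at hand for this list and in none of the 6 at hand for its lower members.

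Amino acid and metabolite transporters were lower in 10 of 31 cases (32.3%) and higher in 1, with a median of -0.40, and 8 of the 10 held with any library left out. SLC38A5, a carrier of glutamine and serine, was at 43.0 and 41.4 RPKM in the control and at 16.2 and 12.9 RPKM with shRNA2 (log2 fold change -1.51, SE 0.16, limma adjusted p = 0.00268). SLC16A1, the lactate carrier, went from 22.4 and 27.1 RPKM to 11.8 and 10.7 RPKM (-1.10). SLC25A32, which carries folate into mitochondria, went from 31.3 and 33.9 RPKM to 17.3 and 15.3 RPKM (-0.98). SLC38A1, a glutamine carrier, fell by 1.35. SLC6A6, the taurine carrier, was the higher one (0.70), a call lost without shRNA2 B, and without control B 3 were called higher. TGATGNAA stood in 3 of the 23 promoters at hand for the transporters and in 2 of the 7 for the lower ones, those of SLC38A1 and SLC7A1.

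Synthesis of nucleotides and polyamines supplies growing cells, and several of its enzymes are known targets of MYC, which binds the E-box CACGTG. Of 37 genes tested, 8 were lower and 1 was higher, with a median of -0.31. AK4, a mitochondrial adenylate kinase, was at 14.8 and 10.2 RPKM in the control and at 4 and 3.88 RPKM with shRNA2 (log2 fold change -1.53, SE 0.19, limma adjusted p = 0.00491). SRM, spermidine synthase, went from 143 and 153 RPKM to 76.5 and 71.7 RPKM (-1.0), PPAT, the first enzyme of purine synthesis, from 19.5 and 23.5 RPKM to 11 and 9.18 RPKM (-1.05), and DHODH, a pyrimidine enzyme of mitochondria, from 11.5 and 12.5 RPKM to 6.34 and 6.46 RPKM (-0.85). RRM2, a subunit of ribonucleotide reductase, was the higher one (0.74), a call lost without control B or shRNA2 A, and without control A 2 were called higher. In all 5 genes, as in every called gene, the groups did not overlap. Fewer genes of the list were called lower without shRNA2 B.

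CACGTG stood in 10.9% of all 8617 promoters at hand. It was in 5 of the 7 promoters at hand for the lower nucleotide and polyamine genes, those of AK4, DHODH, NME1, PPAT and SRM, and in 7 of 32 for the whole list. Of the 5 promoters at hand for lower RNA polymerase and small nucleolar genes 1 held it, that of FBL (8 of 36 for that whole list), as did 3 of the 15 for higher lysosomal genes, which include both matches of the longer letters. The 4 motifs and the lists to search were chosen after the calls were seen, and no test was made. The lower nucleotide and polyamine genes had the largest share of matches, and 2 of their promoters are shown with the E-box in capitals, AK4 on the plus strand of chr1:65147302-65147601 and SRM on the minus strand of chr1:11059969-11060268.
AK4: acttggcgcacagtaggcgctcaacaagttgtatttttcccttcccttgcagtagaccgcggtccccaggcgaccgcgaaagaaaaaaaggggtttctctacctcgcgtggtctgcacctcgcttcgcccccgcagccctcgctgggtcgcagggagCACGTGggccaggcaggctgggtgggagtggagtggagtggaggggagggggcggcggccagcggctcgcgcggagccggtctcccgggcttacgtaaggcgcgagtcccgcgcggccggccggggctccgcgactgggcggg
SRM: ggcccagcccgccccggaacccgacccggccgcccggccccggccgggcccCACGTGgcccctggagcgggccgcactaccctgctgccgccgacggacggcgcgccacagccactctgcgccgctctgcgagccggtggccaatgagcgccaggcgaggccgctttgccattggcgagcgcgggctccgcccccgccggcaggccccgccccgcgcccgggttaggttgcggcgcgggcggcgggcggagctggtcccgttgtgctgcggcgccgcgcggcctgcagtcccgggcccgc
The same letters are known as sites of factors other than MYC, TFEB among them, so they do not tell which factor could bind.

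Ribosome production needs RNA polymerases I and III and the small nucleolar particles that modify ribosomal RNA. Of 45 such genes, 8 were lower and none was higher, with a median of -0.41, and 39 had values below the control. No member was higher at an unadjusted p under 0.05, by limma-voom or in the authors' deposited table. POLR3G, a subunit of RNA polymerase III, was at 8.08 and 7.87 RPKM in the control and at 3.73 and 2.56 RPKM with shRNA2 (log2 fold change -1.24). TCOF1, treacle, a nucleolar factor for ribosomal gene transcription, went from 26.5 and 28.0 RPKM to 13.1 and 15 RPKM (-0.93). These 2 kept their call in every fit with a library left out, and without shRNA2 B they were the 2 members called. Translation factors were lower in 5 of 44 cases and higher in 1, with a median of -0.24. The higher one was EIF4EBP2, a relative of EIF4EBP1 (0.67), a call lost without shRNA2 B. Without control B or shRNA2 B 1 translation factor was called lower, and without shRNA2 A 3.

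**Figure D4:**
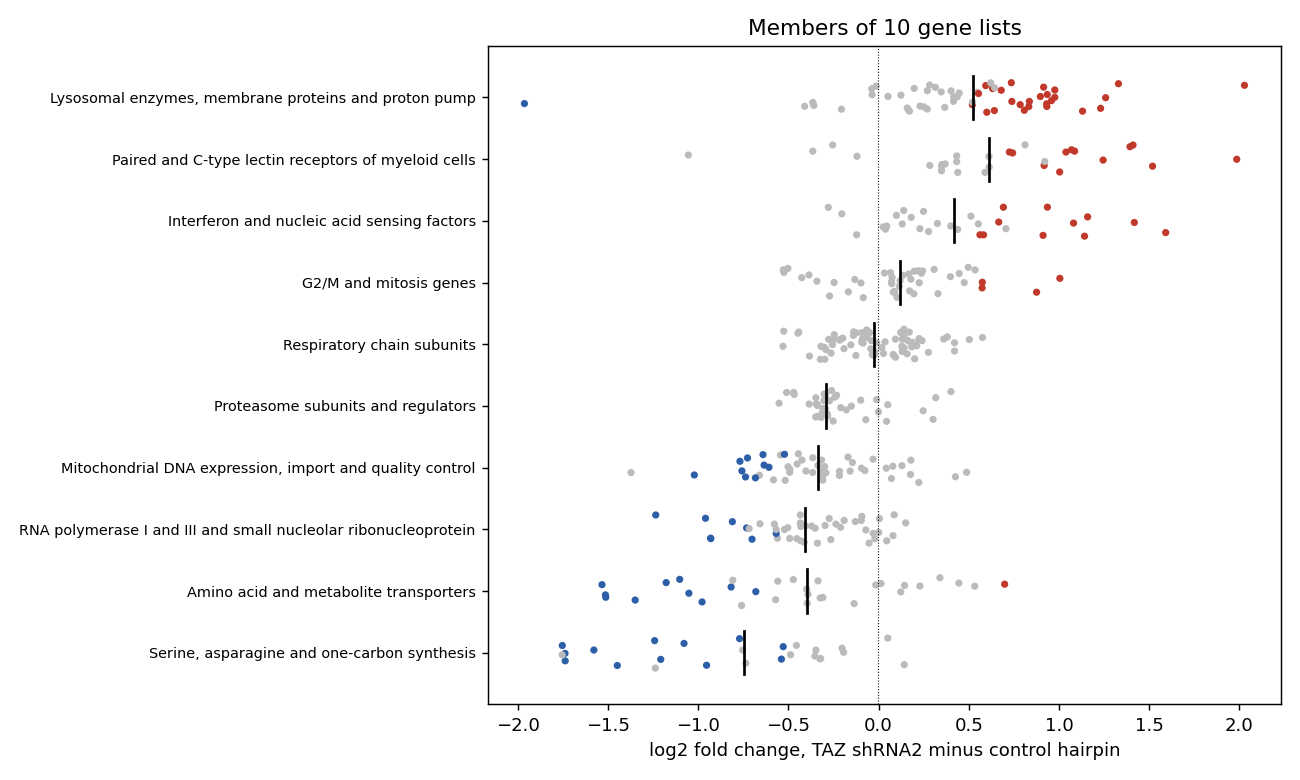
Log2 fold change (TAZ shRNA2 minus control hairpin) of every tested member of 10 gene lists; red members were called higher, blue lower and grey neither, black bars are list medians, the vertical jitter has no meaning and the dotted line is the median of all genes, -0.005. Lysosomal members lie mostly to the right with ATP6V1F alone at -1.96, and serine and transporter genes lie mostly to the left. Respiratory chain subunits, which here leave out complex II, hold no called member.

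Since tafazzin acts in mitochondria, mitochondrial genes were read by role. Of 37 genes for cardiolipin synthesis and membrane organisation, 2 were higher and 6 lower (16.2%), with a median of -0.14. CHCHD3, a subunit of the MICOS complex that shapes cristae, was at 34.7 and 33.1 RPKM in the control and at 85.0 and 77.6 RPKM with shRNA2 (log2 fold change 1.25, SE 0.14, limma adjusted p = 0.00345). Its partner in that complex, CHCHD6, went the other way, at 12.8 and 9.33 against 6.71 and 4.78 RPKM (-0.89), a call lost without shRNA2 B. PLD6, a phospholipase-family protein of the outer membrane, was at 38.6 and 40.5 RPKM against 17.5 and 14.3 RPKM (-1.29), and SLMO1, a lipid transfer protein of the space between the membranes, at 2.18 and 2.47 against 0.718 and 0.926 RPKM (-1.10). CHCHD3, PLD6 and SLMO1 were the members whose calls held with each library left out, and without shRNA2 B 2 members were called lower. Without either shRNA2 library 1 was called higher.

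None of 72 subunit genes of respiratory complexes I, III and IV and of ATP synthase was called. Their median was -0.02 and ran from -0.17 to 0.20 over the fits with a library left out. An unadjusted p under 0.05 gave 3 higher and 2 lower, limma-voom 3 higher and none lower, and the authors' deposited table gives 5 higher and 7 lower. NDUFB5 of complex I had the smallest p, at 232 and 221 RPKM in the control and at 397 and 287 RPKM with shRNA2 (log2 fold change 0.58, limma adjusted p = 0.101). Complex II genes were counted with the tricarboxylic acid cycle instead, and there the subunit SDHC was called higher. The log2 fold change of SDHC ran from 0.59 to 0.75 with 1 library left out. Yet SDHC was not called higher in the fits lacking control B or shRNA2 A. Of 49 genes for mitochondrial DNA expression, import and quality control, 10 were lower (20.4%) and none was higher, with a median of -0.34. At an unadjusted p under 0.05, 2 of them were higher, limma-voom called 1 higher and the authors' deposited table gives 2. TIMM21, of the inner membrane import channel, was at 42.7 and 35.2 RPKM in the control and at 20.4 and 17.4 RPKM with shRNA2 (-1.02), and was the one lower call to hold with every library left out. Without shRNA2 B it was also the one gene of this list called, and without control A 6 were. IDH1, the cytosolic isocitrate dehydrogenase, was lower at 55.3 and 40.3 against 24.5 and 19.6 RPKM (-1.09, limma adjusted p = 0.0133).

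Phosphatidylserine is made by PTDSS1 and PTDSS2 and turned into phosphatidylethanolamine in mitochondria by PISD, and scramblases and flippases set which side of a membrane these lipids face. PISD was at 12.2 and 13.1 RPKM in the control and at 14.5 and 14.9 RPKM with shRNA2, and PTDSS1 at 122 and 148 against 137 and 135 RPKM. Neither passed, with limma adjusted p of 0.329 and 0.943, nor did PTDSS2, at 11 and 10.9 against 8.54 and 7.31 RPKM (limma adjusted p = 0.0787). These 3 were named for the series title, after their values were seen. Of 34 enzymes of these lipids and of phosphatidylcholine, 1 was higher and 4 were lower, with a median of -0.04. LPCAT3, which adds polyunsaturated chains to lysophospholipids, was higher (0.67), and CHPT1 (-0.65), LPCAT4 (-0.54), MBOAT2 (-0.63) and LPIN1 (-0.70) were lower. None of these 5 calls held with every library left out. Members called lower numbered 2 without control A, 1 without shRNA2 A and none without shRNA2 B, where none was called higher either. Of 24 scramblase, flippase and lipid transfer genes, 4 were higher and 1 was lower, with a median of 0.35. TMEM30A, the shared subunit of flippases, rose by 0.88, the scramblase ANO6 by 0.65, VPS13C by 0.74 and PITPNM1 by 0.85, while the flippase ATP8A1 fell by 0.81. None of these 5 calls held with every library left out either; without control A 1 was called higher, and without shRNA2 B no member was called.

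Signalling genes that respond to growth factors were lower more often than higher. Of 33 genes of ERK feedback and the immediate early response, 9 were lower (27.3%) and 3 higher (5 higher without control A). SPRY1, a feedback inhibitor of receptor kinases, was at 5.16 and 5.73 RPKM in the control and at 1.30 and 1.32 RPKM with shRNA2 (log2 fold change -1.72, SE 0.17, limma adjusted p = 0.00255). ETV4, a transcription factor induced by ERK, went from 13.2 and 11.3 RPKM to 4.83 and 4.77 RPKM (-1.26), and ATF3 from 13.6 and 10.4 RPKM to 4.78 and 3.65 RPKM (-1.40). FOS moved the other way, at 72.2 and 67.3 against 137 and 136 RPKM (0.96). The list median was -0.10, and 22 of the 33 members had values below the control. Of the 13 immediate early genes in the list, 4 were lower and 1 was higher.

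Among 27 genes of the NF-kappaB pathway, 7 were lower (25.9%) and 1 was higher (3 without either control library), with a median of 0.03. IL32, a cytokine of activated leukocytes, was at 5.17 and 4.65 RPKM in the control and at 0.222 and 0.043 RPKM with shRNA2 (log2 fold change -3.11). TNFAIP3, the inhibitor A20, went from 11.7 and 10.9 RPKM to 2.56 and 3.35 RPKM (-1.78), and LTB, lymphotoxin beta, from 19.7 and 15.7 RPKM to 6.27 and 3.95 RPKM (-1.72). TNFSF13B, the B cell factor BAFF, was the higher one, at 25.8 and 29.3 against 68.5 and 63.9 RPKM (1.25). These 4 genes kept their call with any library left out.

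Cell cycle genes were read by phase, and the lists were not tested against each other. Of 45 genes of G1/S and DNA replication, 6 were lower and 1 was higher (2 without control B), with a median of -0.17. CDC25A, the phosphatase that opens S phase, was at 23.4 and 23.2 RPKM in the control and at 6.73 and 6.67 RPKM with shRNA2 (log2 fold change -1.72, SE 0.14, limma adjusted p = 0.00245). POLD2, of DNA polymerase delta, was lower (-0.95), as was the licensing factor CDT1 (-0.88), and CCNE2, cyclin E2, rose by 0.82. Of 44 genes of G2/M and mitosis, 4 were higher (9.09%) and none was lower, with a median of 0.12; the lower members numbered 5 at an unadjusted p under 0.05 and none by limma-voom, and the authors' deposited table gives 6. Without shRNA2 B 2 were called higher, and without control B 1 was called lower. That share of higher members is close to the 8.12% among all genes. ANLN, of the contractile ring, was at 19.4 RPKM in both control libraries and at 39.8 and 39.0 RPKM with shRNA2 (1.0), and ASPM, of the spindle poles, rose by 0.88. KIF4A (0.57) lost its call without either shRNA2 library, and MKI67 (0.57) without control A, control B or shRNA2 B.

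Among 17 inhibitors of cyclin-dependent kinases and genes of cell cycle exit, 5 were higher and 2 lower, with a median of 0.27. CDKN2C, the inhibitor p18, was at 31.0 and 27.4 RPKM in the control and at 59.5 and 48.1 RPKM with shRNA2 (log2 fold change 0.86), and RBL2, a relative of the retinoblastoma protein, at 19.5 and 24.7 against 37.3 and 39.1 RPKM (0.78). E2F5, its transcription factor partner, went from 12.9 and 14.7 RPKM to 4.51 and 4.33 RPKM (-1.54, limma adjusted p = 0.00245). CCND1, cyclin D1, fell by 1.39; its mean was under the filter without control A, where it was not tested, and it was called in the other 3 fits with a library left out. CDKN1A, the inhibitor p21, rose by 0.61, a call lost without control B, shRNA2 A or shRNA2 B. Members called higher numbered 2 without shRNA2 A and 3 without shRNA2 B, and 1 was called lower without control A. DNMT3A, a DNA methyltransferase often mutated in this leukaemia, was at 9.30 and 10.1 against 3.8 and 4.89 RPKM (-1.08). SESN3, a sestrin that restrains growth signalling, was at 2.05 and 1.82 RPKM against 7.13 and 8.39 RPKM (1.76), and APAF1, the scaffold of the apoptosome, at 10.8 and 9.58 against 21.5 and 18.7 RPKM (0.95). DNMT3A, SESN3 and APAF1 belong to the lists of epigenetic regulators, the MYC and MAX network and the BCL2 family. SESN2, another sestrin, did not pass. Its log2 fold change ran from -1.85 without control A to -0.44 without control B.

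Receptors and adhesion molecules of the cell surface changed in both directions. Of 18 haematopoietic growth factor and cytokine receptors, 6 were higher and 3 lower, with a median of 0.46; without shRNA2 B 2 were called higher, without either shRNA2 library none was called lower, and without control A 1 was. IL13RA1, a receptor chain for IL-13 and IL-4, was at 5.4 and 6.06 RPKM in the control and at 14 and 14.8 RPKM with shRNA2 (log2 fold change 1.26, limma adjusted p = 0.0036), and TGFBR1, the type I receptor for TGF-beta, rose by 0.96. Of 25 integrins, selectins and adhesion molecules, 5 were higher and 2 lower, with a median of 0.14; 3 were called higher without shRNA2 A and 8 without control A. EMB, embigin, a chaperone of lactate carriers, was at 54.2 and 69.3 RPKM against 146 and 153 RPKM (1.28). CD44, the hyaluronan receptor, was lower at 69.9 and 59.9 against 32.7 and 27.7 RPKM (-1.09, limma adjusted p = 0.00712).

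The remaining lists are set beside the 15.7% of all genes that were called. Furthest above it were angiogenic and secreted growth factors with 42.9% (4 of 21 higher, 5 lower). S100 and annexin proteins followed with 38.1% (4 of 21 higher, 4 lower). Epigenetic regulators had 12.5% (1 of 40 higher, 4 lower) and the MYC and MAX network 9.09% (1 of 33 higher, 2 lower). Eicosanoid enzymes also had 9.09% (1 of 11 higher, none lower). The share called was 18.2% for oxidant defence, 18.8% for endoplasmic reticulum chaperones, 17.2% for p53 targets and 23.1% for the YAP1 and WWTR1 pathway. It was 13.8% for the BCL2 family and caspases and 10.4% for fatty acid oxidation and the tricarboxylic acid cycle. Sterol and fatty acid synthesis had 6.0% and aminoacyl-tRNA synthetases 5.41%. Oxidant defence had 4 of 33 genes higher and 2 lower, and none of these 6 genes kept its call in all 4 fits that left out 1 library; without shRNA2 A 2 were called higher, and called lower were none without shRNA2 B and 1 without control A. Fatty acid oxidation and the tricarboxylic acid cycle had 3 of 48 higher and 2 lower (IDH1 and PDK1), p53 targets 3 of 29 higher and 2 lower, and the BCL2 family and caspases 2 of 29 higher and 2 lower. Endoplasmic reticulum chaperones had 3 of 32 higher and 3 lower, with DERL1, of the degradation channel, at 40.4 and 41.7 RPKM in the control and at 24.3 and 21.3 RPKM with shRNA2 (-0.84, limma adjusted p = 0.0113). Without shRNA2 A neither the chaperones nor the oxidation and tricarboxylic acid cycle genes had a member called higher; without shRNA2 B each had 1, and so had the latter without either control library. Without shRNA2 B the oxidation and cycle genes and the p53 targets had 1 lower each and the BCL2 family 1 higher and none lower. The p53 targets had 5 higher and 4 lower without control A and 6 higher without control B, where the BCL2 family had 4 higher. None of 40 proteasome genes was called, with a median of -0.29; with an unadjusted p under 0.05 there were 1 higher and 5 lower, with limma-voom none, and the authors' deposited table gives 2 higher and 13 lower. Of 37 aminoacyl-tRNA synthetases, 2 were lower and none was higher, with a median of -0.32; 11 were called lower without control A and none without shRNA2 B, and neither an unadjusted p under 0.05 nor limma-voom nor the authors' deposited table gives a higher member. The higher genes of sterol and fatty acid synthesis were NPC2 and CD36, a carrier and a receptor rather than enzymes. CD36 had a control mean under 1 RPKM and was tested because of its level with shRNA2. Of the 50 genes of this list, 2 were higher and 1 was lower (FABP5). The count turned on the control libraries: without control B 17 of these genes were called lower, and without control A 5 were higher and none lower. Without shRNA2 B 3 were lower. The median of that list, -0.21, was 0.10 without control A. Of 13 genes of the YAP1 and WWTR1 pathway, 2 were higher and 1 was lower. Called higher were 1 without control A or shRNA2 A and none without shRNA2 B, and called lower 2 without control B. TEAD4, the DNA-binding partner of YAP1, was at 18.5 and 21.7 RPKM against 9.46 and 7.90 RPKM (-1.17), while YAP1 stayed under 2 RPKM in all 4 libraries (0.92, a call lost without shRNA2 B).

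To see which of these values differed from those of the other hairpin, TAZ shRNA2 was set directly against TAZ shRNA1 in a fit of all 6 libraries. Of 10660 genes tested, 510 were higher and 650 lower with shRNA2 (10.9% in all). This count rests on few libraries, since it was 70 higher and 85 lower without shRNA1 B and 99 and 104 without shRNA1 A. Without shRNA2 A it was 173 and 261, and without shRNA2 B 216 and 228. TAZ was lower with shRNA2, at 1.47 and 2.13 RPKM against 4.02 and 4.10 RPKM with shRNA1 (log2 difference -1.0, limma adjusted p = 0.00801). That call was lost without either shRNA1 library, with a largest adjusted p of 0.084.

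Several falls seen with shRNA2 were larger than, or opposite to, those with shRNA1. ATP6V1F was at 132 and 127 RPKM with shRNA1, between both control libraries, against 38.3 and 30.2 RPKM with shRNA2 (log2 difference -1.91, limma adjusted p = 0.000905). IDH1 was at 71.1 and 70.3 RPKM with shRNA1, above both control libraries, against 24.5 and 19.6 RPKM with shRNA2 (-1.67). NUDC, at 95.6 and 78.2 RPKM with shRNA1, differed by -1.61, CDC25A by -1.38 and MPO by -1.63. Among the rises, CTSB was at 11.3 and 10.4 RPKM with shRNA1, below both control libraries (log2 difference 1.43). IFI6 was at 17.0 and 18.0 RPKM with shRNA1 and differed by 1.94, and CCL2, at 5.65 and 4.25 RPKM with shRNA1, by 2.57. CD14, at 2.44 and 1.61 RPKM with shRNA1, differed by 2.12, a call lost without shRNA1 B. All others of these genes kept the call with any shRNA1 or shRNA2 library left out. Other genes were close in both hairpins: LYZ was at 5240 and 4740 RPKM with shRNA1 and differed by -0.38 (SE 0.21, limma adjusted p = 0.306), a p that does not show equal levels.

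**Figure D5:**
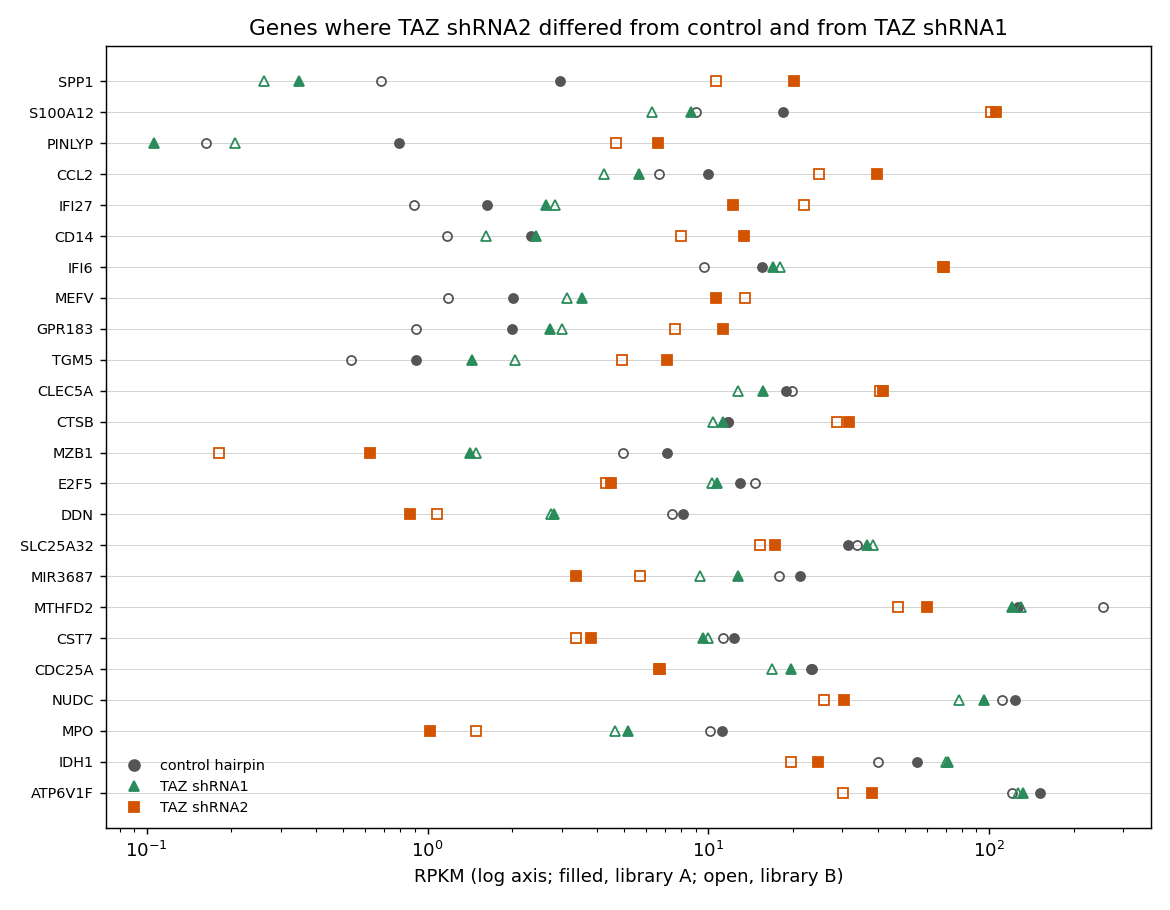
RPKM on a log axis in all 6 libraries of 24 genes that differed with TAZ shRNA2 both from the control hairpin and from TAZ shRNA1; circles are control, triangles shRNA1 and squares shRNA2, filled for library A and open for library B. The 12 upper genes, from SPP1 to CTSB, were higher with shRNA2 and the 12 lower ones, from MZB1 to ATP6V1F, were lower; MTHFD2 lost its difference between the hairpins in all 4 fits with a hairpin library left out, MZB1, MIR3687 and GPR183 in 3, and TGM5 and CD14 in 1. For ATP6V1F the shRNA1 libraries lie between the control libraries.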

How the data were processed

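RNA of OCI-AML2 cells was sequenced in 6 libraries, 2 per group, of which 4 enter the main comparison. Per the labels' protocols, RNA was column purified and libraries came from a directional kit. Per the submitters' processing notes, the build hg19 and the tools TopHat2 2.0.11, HTSeq 0.6.1p2, Trim Galore 0.4.0, DESeq 1.18.0 and edgeR 3.8.6 were used, in roles not given in the sources used here. The strand setting of the counting is not given there either, so sense and antisense genes at 1 place cannot be told apart, and reads of near-identical paralogs are uncertain. Each hairpin has 1 deposited table that holds, per the file headers, the authors' RPKM per library, a log2 fold change, an average log2 CPM, a likelihood-ratio score, a p-value and an adjusted p-value.

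In the tables, 21 symbols turned into dates were named again by gene ID and 2 exact repeats were dropped. The control values were identical between the tables. RPKM steps gave whole reads for all 13002 genes (100%, within 0.05 reads), and these reads gave the depth and the gene lengths. Values were analysed as log2(RPKM + 0.5), for genes averaging 1 RPKM or more over the libraries fitted, with limma 3.58.1 (R 4.3.3), a prior variance trend, two-sided tests and Benjamini-Hochberg adjustment at 0.05. Fold changes on this scale understate the change of low genes. The script was tested on simulated data. Fits with 1 library left out assume that the lone library of a group varies like the other group. Their p-values are therefore not on the scale of the main fit, and a call kept in them is no added support.

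The gene lists, the rule for named genes and the members described were chosen with earlier results of these data known. Named by rule were TAZ; the 15 largest rises and falls in log2 fold change, without overlap and with at least 5 RPKM in the higher group; the 10 largest rises and falls in RPKM; up to 4 members of each list with the smallest p, and all called members of lists with at most 6; and the 5 largest differences between the hairpins in each direction. Role groups within lists and the promoter searches were set after the calls were seen. Alternatives were pseudocounts of 0.1 and 1, no filter and a filter at 5 RPKM, quantile and median scaling, removal of the gene length trend, other empirical Bayes settings, a replicate block, limma-voom on recovered reads, a fit of all 6 libraries, the authors' deposited test and each library left out. A gene that the rule for named genes selects is not reported here.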

Additional observations from a re-analysis of the deposited data

Results flagged for a closer look

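The 10 genes with the largest differences between TAZ shRNA2 and TAZ shRNA1 (5 in each direction) are given here because that difference itself passed the test (limma over all 6 libraries), and all 10 kept their call with any 1 shRNA1 or shRNA2 library left out. Higher with shRNA2 were SPP1 by 4.24 on the log2 scale, S100A12 by 3.72, PINLYP by 3.21, S100A8 by 2.98 and RETN, resistin, by 2.79. S100A8, a calcium-binding protein of neutrophils and monocytes, was at 831 and 429 RPKM in the control, against 1300 and 815 RPKM with shRNA2 and 141 and 120 RPKM with shRNA1. Its level with shRNA2 overlapped the control and did not pass against it (log2 fold change 0.78, limma adjusted p = 0.181), and the same holds for RETN (0.60, limma adjusted p = 0.122), though the RETN groups did not overlap. Lower with shRNA2 were HLA-DRA by -3.02, B3GNT7 by -2.74, GABRR1 by -2.46, TMEM255A by -2.44 and PTGDS by -2.43. HLA-DRA, which encodes an MHC class II chain, was at 7.82 and 8.49 RPKM with shRNA1, against 0.521 and 0.62 RPKM with shRNA2 and 1.31 and 0.423 RPKM in the control. These 5 genes were mostly under 1 RPKM in the control and with shRNA2, so they stood out through their level with shRNA1.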

How the results depend on the processing

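No called gene changed sign under any alternative. Against the control (865 higher, 811 lower), counts were 1309 higher and 1197 lower with the gene length trend removed, 1330 and 1254 with all 6 libraries in the fit, and 2587 and 2457 in the authors' deposited table, which holds 1666 of the 1676 genes with the same sign. Leaving out 1 library gave 444 to 1037 higher and 379 to 973 lower. Limma-voom on recovered reads called 1080 higher and 704 lower, so 60.5% of its calls were higher against 51.6%. The cause of these shifts was not tested. Between the hairpins (510 higher, 650 lower), a filter at 5 RPKM gave 339 and 477, and leaving out 1 library gave 70 to 216 higher and 85 to 261 lower.

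The letters A and B were not established as pairs. The differences B minus A correlated across genes at 0.42 between control and shRNA2, 0.257 between control and shRNA1 and 0.365 between the hairpins, but the labels give the letters no shared culture or day, and each group has 2 libraries. A fit with the letter as replicate block called 2006 higher and 2164 lower against the control, and 1102 higher and 1294 lower between the hairpins.

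List medians of at least 0.1 in size that changed sign were those of sterol and fatty acid synthesis (-0.21, 0.10 without control A), p53 targets (0.16, -0.09 without control A), angiogenic factors (0.28, -0.06 without control B, -0.11 with the filter at 5 RPKM), mast cell markers (-0.38, 0.02 without shRNA2 B or with that filter) and dendritic cell markers (-0.25, 0.13 without shRNA2 B). Of 191 called named genes, 15 lost their call without the filter (such as EIF5A and HSPD1), 12 without a variance trend (such as CDKN1A and SOCS2), 6 with robust empirical Bayes, 4 with the gene length trend removed (MKI67 among them) and 3 with limma-voom (LPCAT4 and MBOAT2 among them). More of the 191 genes lost their call in each fit with a library left out than in any of these settings. The losses were largest without shRNA2 B, though the p-values of such fits are on another scale. The number of libraries, 2 per group, limits the precision of all values.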
